A study of Homo sapiens with 4 samples.

Results

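NF-κB is a family of dimeric transcription factors, and the 10 genes described here encode its 5 subunits (*NFKB1*, *NFKB2*, *REL*, *RELA*, and *RELB*), 3 proteins of the IκB family (*NFKBIA*, *NFKBIE*, and *NFKBIZ*), and the ubiquitin enzymes *TNFAIP3* and *BIRC3*. They were chosen by name from the 20372 genes of the deposited table. All 10 were found, all 10 are protein coding, and all 10 passed the filter on low counts. TPC1, a human line established from a papillary thyroid carcinoma, expresses a CCDC6-RET fusion protein, and BLU6864 is a RET inhibitor. Every library came from TPC1 cells kept in BLU6864, in 2 libraries after 6 h and 2 after 24 h. The libraries of both times therefore share the inhibitor, and 0 vehicle libraries were analysed here, so the effects of inhibitor exposure and of longer culture cannot be told apart. The labels give a dose of 100 µM and the methods 100 nM. The labels also mark both 24 h libraries and neither 6 h library as re-analysed. What this mark stands for is not stated, and any difference that goes with it cannot be told apart from time.

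In resting cells, IκB proteins hold NF-κB dimers in the cytoplasm. Signals from cytokine and pattern recognition receptors activate the IκB kinases (IKK), the IκB protein is degraded, and the dimer enters the nucleus and binds κB sites in DNA. Several of the genes it switches on encode its own inhibitors, above all *NFKBIA* (IκBα) and *TNFAIP3*, a ubiquitin-editing enzyme that shuts down signaling from the receptors, so that the mRNA of these feedback genes is often read as a trace of recent NF-κB activity. In a second, slower branch of the pathway, *NFKB2* is processed and pairs with *RELB*.

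Total counts lay between 23917056 and 27457040 per library, and the counts of the 10 genes between 382 and 14324. Of the thyroid markers, *PAX8* had between 19124 and 22978 counts in each library, whereas *NKX2-1* and *TSHR* had 0. Of the 4 thyroid markers tested, *TG* was called lower at 24 h and *FOXE1* higher. *TG* had 201 and 235 normalized counts at 6 h and 97.6 and 108 at 24 h. *FOXE1* had 295 and 268 at 6 h and 460 and 541 at 24 h. Of 10 white blood cell markers, 6 had at most 5 counts in any library, among them *PTPRC*. The summed normalized count of that list lay between 4662 and 4878 at 6 h and between 2685 and 2758 at 24 h, most of it from *CD68*, a lysosomal gene. *CD14*, a monocyte marker, went the opposite way, with 50.7 and 39.3 normalized counts at 6 h and 84.7 and 88.6 at 24 h. Of the 3 endothelial markers in the table, *CDH5* had at most 1 count, and the list summed to between 507 and 542 at 6 h and between 26.3 and 47.8 at 24 h, nearly all of it *KDR*. Of the 6 epithelial markers, *KRT8* and *KRT18* had between 856 and 1811 counts in every library, while *EPCAM* and *CDH1* had at most 11. *KRT19* was lower at 24 h, with 108 and 120 normalized counts at 6 h and 36.9 and 38.9 at 24 h. *KRT7* was higher, with 202 and 256 at 6 h and 418 and 404 at 24 h, and *KRT18* rose by 0.37 on the log2 scale. The part of these marker changes in the results was not tested.

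The promoters of these genes are shown because the feedback loop runs through κB sites. RefSeq start sites of build GRCh38.p14 were available for 8 of the 10 genes, in 13 windows of 250 bases before a start. *RELB* and *NFKBIE* had no entry. In 7 of these 8 genes at least 1 window held a match to the κB consensus on either strand, against 6.28% of all 27305 genes with a promoter entry. Counted by window, the share was 9 of 13, against 5.21% of all 35116 windows. The exception was *RELA*, with 0 matches in both of its windows. The windows of *NFKBIA* and *TNFAIP3*, the genes with the largest falls, and of *BIRC3*, which was not called, are printed 5′ to 3′ on the strand of the gene, with κB consensus matches in capitals.
NFKBIA, chr14:35404750-35404999, minus strand: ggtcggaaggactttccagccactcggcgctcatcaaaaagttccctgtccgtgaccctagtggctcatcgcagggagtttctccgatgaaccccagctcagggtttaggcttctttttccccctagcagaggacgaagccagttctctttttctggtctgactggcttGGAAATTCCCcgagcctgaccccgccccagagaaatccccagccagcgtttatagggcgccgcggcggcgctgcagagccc
TNFAIP3, chr6:137867009-137867258, plus strand: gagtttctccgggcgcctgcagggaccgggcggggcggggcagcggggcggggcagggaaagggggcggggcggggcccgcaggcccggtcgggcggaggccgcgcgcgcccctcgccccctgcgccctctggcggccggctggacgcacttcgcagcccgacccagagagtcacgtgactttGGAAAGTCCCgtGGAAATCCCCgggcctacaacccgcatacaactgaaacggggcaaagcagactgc
BIRC3, chr11:102317234-102317483, plus strand: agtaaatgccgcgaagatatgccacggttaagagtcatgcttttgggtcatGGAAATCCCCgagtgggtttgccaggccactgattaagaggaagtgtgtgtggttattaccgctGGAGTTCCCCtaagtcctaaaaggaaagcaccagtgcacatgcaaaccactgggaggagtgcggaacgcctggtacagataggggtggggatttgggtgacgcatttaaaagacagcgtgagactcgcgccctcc
The match in *NFKBIA* begins 81 bases before the start. The pair in *TNFAIP3* begins 67 and 55 bases before it, and the pair in *BIRC3* lies farther away, at 199 and 135 bases. *NFKB1* holds GGGAATTTCC at 49 bases and *REL* the overlapping matches GGGAAATTCC and GGAAATTCCC at 47 and 46 bases. *NFKB2* holds GGGGCTTCCC at 176 and GGGACTTTCC at 21 bases before its most downstream start. Before another of its starts it holds the overlapping matches GGGAATTCCC and GGAATTCCCC at 107 and 106 bases, and GGGGCTTTCC at 78. *NFKBIZ* holds GGGAATTTCC at 223 bases before 1 start and GGGGTTTCCC at 239 bases before the other. A match is a description of the letters only, and binding was not measured.

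Between 6 h and 24 h of BLU6864, 6 of the 10 genes were lower and 2 were higher, at an adjusted P under 0.05 from edgeR over all genes tested. The largest changes were falls of the feedback inhibitors, 2.57-fold in *TNFAIP3* and 1.83-fold in *NFKBIA*, whereas *RELA* was 1.35-fold higher. *REL* and *BIRC3* were not called. Of the 12876 genes tested, 32.6% were called lower and 33.0% higher, and whether the 10 genes differ from these shares was not tested. The median log2 fold change of the 10 genes was -0.20, beside 0.0029 for all genes tested. In the 8 called genes the libraries of the 2 times did not overlap, 6 of them lower and 2 higher, which 40.8% and 41.0% of all genes tested did in each direction. The methods state a cutoff for lower genes only, a log2 change below -0.5 with P below 0.01. It was read here as an unadjusted P and mirrored for higher genes. The methods used DESeq2, whereas here the cutoffs were applied to the edgeR fit. With these stricter cutoffs *TNFAIP3* and *NFKBIA* were lower and 0 of the 10 were higher, with 17.7% and 17.4% of all genes tested past these cutoffs in each direction. The labels do not say whether the 2 libraries of a time came from separate cultures, so P measures only the spread between libraries, which may be technical. RNA was taken from whole cultures, so fewer cells that express a gene and less of its RNA per cell cannot be told apart.

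**Figure D1:**
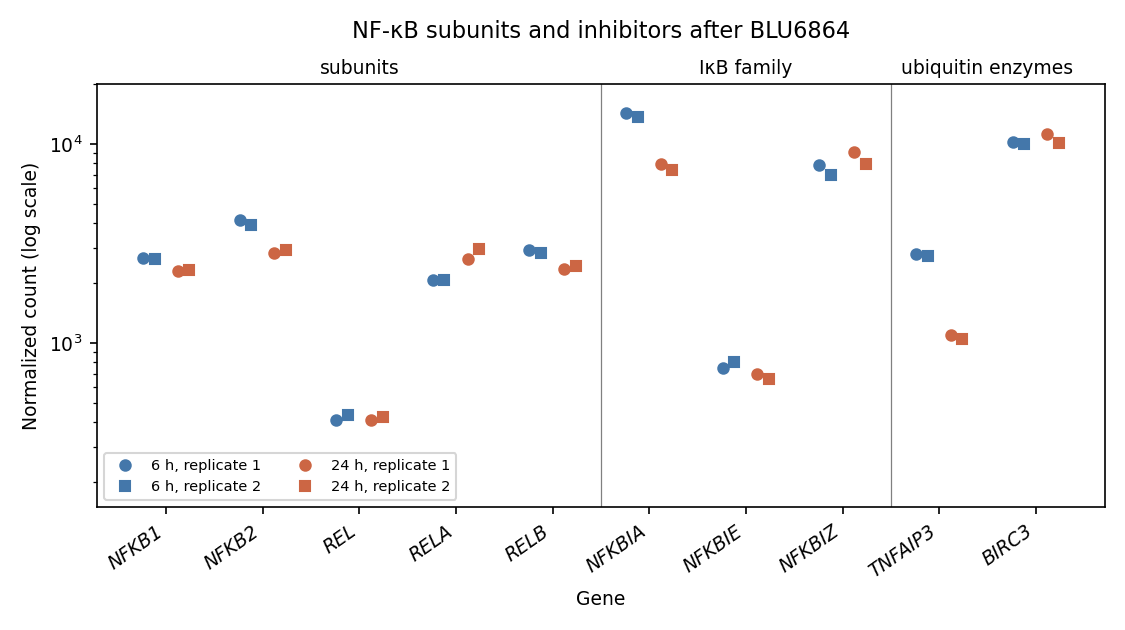
Normalized counts on a log scale of the 10 genes in each library, with 6 h in blue, 24 h in orange, circles for replicate 1, and squares for replicate 2. Both 24 h libraries of *TNFAIP3* and *NFKBIA* lie below both 6 h libraries, those of *RELA* lie above, and those of *REL* and *BIRC3* overlap with 6 h.

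*RELA* encodes the subunit that carries most of the transactivating capacity of the canonical dimer. Normalized counts, the raw counts scaled to a common library size, were 2083 and 2069 at 6 h and 2641 and 2967 at 24 h. The times did not overlap, and the 24 h libraries differed more from each other than those of 6 h. The log2 fold change of *RELA* (ENSG00000173039, chromosome 11 of hg19, 65421067 to 65430565) was 0.43 (standard error 0.0732, edgeR adjusted P = 1.05e-05). It lay between 0.35 and 0.52 when each library was left out in turn. *RELA* was the only one of the 5 subunits called higher in this comparison.

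*NFKB2* encodes the precursor that is processed in the slower branch. Its normalized counts were 4137 and 3943 at 6 h and 2850 and 2942 at 24 h. *NFKB2* fell 1.39-fold, and its log2 value was -0.48 with a standard error of 0.0707 (edgeR adjusted P = 1.40e-06). *RELB*, its partner in that branch, fell less. It had 2952 and 2842 normalized counts at 6 h and 2359 and 2442 at 24 h. The log2 difference was -0.27, with a standard error of 0.0700 and an edgeR adjusted P of 0.00141. In both genes the 2 times were separated by more than the libraries of a time differed. *NFKB1*, the precursor of the DNA-binding partner of *RELA*, had 2670 and 2638 normalized counts at 6 h and 2295 and 2321 at 24 h. On the log2 scale *NFKB1* fell by 0.20 (standard error 0.0692, edgeR adjusted P = 0.0130), and the adjusted P was 0.0713 without 24 h replicate 1 and 0.0510 without 24 h replicate 2. *REL*, a subunit best known from lymphocytes, was the least abundant of the 10. It had 412 and 435 normalized counts at 6 h and 409 and 427 at 24 h, and the libraries overlapped. For *REL* this gave a log2 fold change of -0.02, with a 95% interval from -0.22 to 0.18, and its sign changed when 24 h replicate 1 or 6 h replicate 2 was left out and with upper quartile scaling.

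*NFKBIA* (ENSG00000100906, chromosome 14 of hg19, 35870717 to 35873955), whose κB match is printed above, had the highest count of the 10 genes at 6 h. Normalized counts were 14267 and 13742 at 6 h and 7913 and 7381 at 24 h. The fall of *NFKBIA* was many times the difference between the libraries of a time, and its log2 fold change was -0.87, with a standard error of 0.0760 (edgeR adjusted P = 1.19e-10). Of all genes tested, 10.1% had a lower log2 fold change. *NFKBIE* encodes another cytoplasmic IκB protein and was less abundant, with 747 and 801 normalized counts at 6 h and 696 and 660 at 24 h. The 2 times did not overlap, but the gap was small. Its log2 fold change of -0.19 (standard error 0.0845) had an edgeR adjusted P of 0.0485, which became 0.0610 without 24 h replicate 1, 0.227 without 24 h replicate 2, 0.249 without 6 h replicate 2, and 0.179 with DESeq2. Over all alternatives with the same call rule it lay between 0.0191 and 0.249.

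*NFKBIZ* encodes an IκB protein of the nucleus that is needed for the induction of a subset of NF-κB target genes. Unlike *NFKBIA* and *NFKBIE*, it was higher at 24 h, with 7804 and 7023 normalized counts at 6 h and 9105 and 7959 at 24 h. The higher 6 h library and the lower 24 h library nearly touched. *NFKBIZ* rose by 0.20 on the log2 scale (standard error 0.0798, edgeR adjusted P = 0.0282). It was 0.11 without 24 h replicate 1 and 0.12 without 6 h replicate 2, with edgeR adjusted P of 0.363 and 0.211, and 0.16 with scaling by library size alone, with an adjusted P of 0.0857. *NFKBIZ* was the only one of the 10 genes whose position overlaps another gene of the table, *NXPE3*. *NXPE3* moved the opposite way, with a log2 fold change of -0.68, and the strand setting of the counting is not given in the sources used here, so reads shared by the pair were not told apart.

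*TNFAIP3* (ENSG00000118503, chromosome 6 of hg19, 138188351 to 138204449) had the largest change of the 10. Normalized counts were 2794 and 2733 at 6 h and 1099 and 1054 at 24 h. The libraries of a time were close to each other and the 2 times far apart. For *TNFAIP3* the log2 fold change was -1.36, with a standard error of 0.0714 (edgeR adjusted P = 3.13e-15), and it lay between -1.38 and -1.32 with each library left out. Of all genes tested, 5.76% had a lower log2 fold change. *BIRC3* encodes a ubiquitin ligase that works at the receptor complex and is a common NF-κB target. It had 10246 and 9959 normalized counts at 6 h and 11173 and 10118 at 24 h. The lower 24 h library lay between the 6 h libraries, and the log2 fold change of 0.08 had a 95% interval from -0.08 to 0.23, which leaves out a fall of the size seen in *TNFAIP3* or *NFKBIA*.

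**Figure D2:**
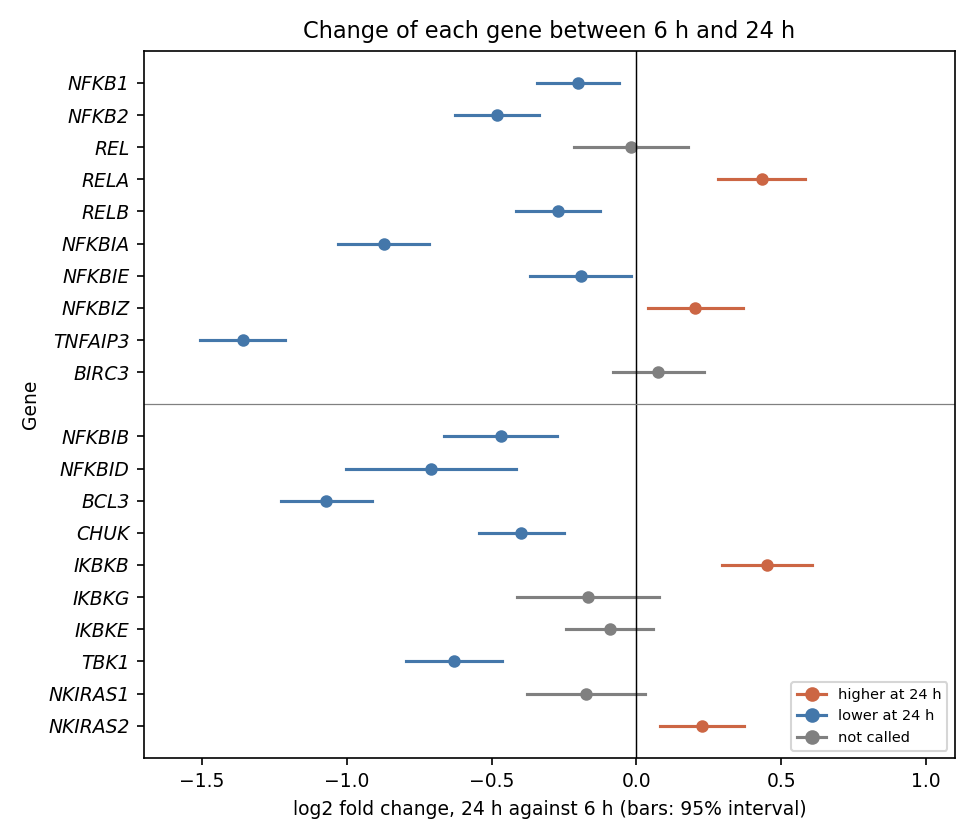
The log2 fold change of each gene (points) with its 95% interval (bars), for the 10 genes above the line and the other IκB family and IKK genes below it. Orange marks genes called higher at 24 h, blue those called lower, and grey those not called, and the interval of *TNFAIP3* is the farthest from 0.

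To compare levels between genes, counts were divided by the length of the Ensembl canonical transcript, giving RPKM, a read count scaled to both transcript length and library size. At 6 h, *NFKBIA* led with 343 ± 9.10 RPKM (SD, n = 2). *NFKBIZ* (72.2 ± 5.38), *BIRC3* (56.2 ± 1.13), and *NFKB2* (51.2 ± 1.74) followed. *RELB* was at 49.1 ± 1.33, *RELA* at 31.5 ± 0.151, and *NFKB1* at 25.0 ± 0.209. *TNFAIP3* had 22.6 ± 0.351, *NFKBIE* 12.6 ± 0.624, and *REL* 1.46 ± 0.0541. The difference between *NFKB2* and *RELB* was of the size of their spread, although the 2 libraries of each did not overlap. At 24 h, *NFKBIA* was still first with 188 ± 9.21 RPKM, and *NFKBIZ* and *BIRC3* kept their places. *RELA*, at 42.6 ± 3.50, moved above *RELB* (40.6 ± 0.986) and *NFKB2* (36.7 ± 0.820), although the libraries of *RELA* and *RELB* overlapped. *TNFAIP3*, at 8.82 ± 0.261, moved below *NFKBIE* (11.1 ± 0.422). The RPKM of *NFKBIA* and *NFKBIE* together lay between 350 and 362 at 6 h and between 192 and 205 at 24 h. The 5 subunits summed to between 156 and 161 at 6 h and between 139 and 147 at 24 h.

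Ratios of a pair of genes within a library do not depend on how libraries are scaled. Their size does depend on the transcript length taken for each gene, as does the order of the genes by RPKM. These pairs were chosen after their values were seen and are a description. Reads per base of *NFKBIA* were 11.1 and 10.7 times those of *RELA* in the 6 h libraries, and 4.84 and 4.02 times in those of 24 h. The ratio of *NFKBIE* to *RELA* was 0.385 and 0.416 at 6 h and 0.283 and 0.239 at 24 h. For *TNFAIP3* to *RELA* it was 0.724 and 0.713, and then 0.224 and 0.192. Both inhibitors and *TNFAIP3* were thus lower relative to *RELA* in each 24 h library than in either 6 h library. Among the subunits, *NFKB2* went from 1.66 and 1.59 times *RELA* to 0.901 and 0.828 times, and *NFKB1* from 0.795 and 0.791 to 0.539 and 0.486. The pair of the slower branch stayed closer together, since *NFKB2* had 1.05 and 1.04 times the reads per base of *RELB* at 6 h and 0.905 and 0.902 times at 24 h. *BIRC3* and *NFKBIZ* moved apart from *TNFAIP3*, with a ratio of *BIRC3* to *TNFAIP3* of 2.49 and 2.47 at 6 h and 6.90 and 6.51 at 24 h.

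**Figure D3:**
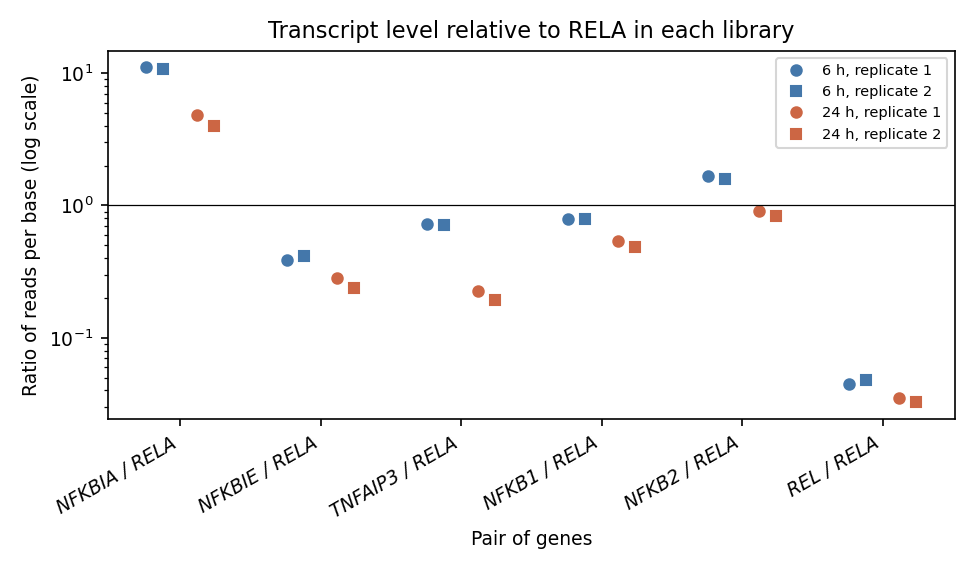
Reads per base of 6 genes divided by those of *RELA* in each library, on a log scale, with 6 h in blue and 24 h in orange and a line at a ratio of 1. In all 6 pairs both 24 h libraries lie below both 6 h libraries, and *NFKB2* crosses from above to below *RELA*. The crossing depends on the transcript lengths taken. Raw counts of *NFKB2* and *RELA* were 2861 and 2651 in 24 h replicate 1 and 3023 and 3049 in 24 h replicate 2. *RELA*, the shared denominator, was itself higher at 24 h, and *REL*, which was not called, also has a lower ratio.

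The other IκB family members tested, 3 in all, were each called lower. *BCL3*, a nuclear member that binds the products of *NFKB1* and *NFKB2*, had 2582 and 2529 normalized counts at 6 h and 1125 and 1308 at 24 h. The fall was 2.10-fold (log2 -1.07, standard error 0.0762), with an edgeR adjusted P of 1.98e-12. *NFKBID*, another nuclear member, and *NFKBIB*, a cytoplasmic one, had log2 fold changes of -0.71 and -0.47, both called lower. The catalytic subunits of the IKK complex went in opposite directions. *IKBKB*, which drives the canonical branch, had 1001 and 991 normalized counts at 6 h and 1412 and 1312 at 24 h. It rose by 0.45 on the log2 scale, with a standard error of 0.0749 (edgeR adjusted P = 8.19e-06). *CHUK*, which drives the slower branch, had 1909 and 1878 at 6 h and 1495 and 1380 at 24 h. Its log2 value was -0.40 with a standard error of 0.0715 (edgeR adjusted P = 2.50e-05). *IKBKG*, the scaffold of the complex, was not called, with a log2 fold change of -0.17 and a 95% interval from -0.41 to 0.08, and reads may be shared with its near-identical pseudogene. Of the IKK-related kinases, *TBK1* fell with a log2 fold change of -0.63, while *IKBKE*, at -0.09, was not called. *NKIRAS2*, a small GTPase that binds IκB proteins, rose by 0.23 on the log2 scale, and its relative *NKIRAS1*, at -0.17, was not called. Of these 10 genes, 5 were called lower and 2 higher, beside 32.6% and 33.0% of all genes tested.

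Upstream of IKK, 10 of the 23 adaptors and enzymes tested were higher and 8 lower, beside 33.0% and 32.6% of all genes tested. The median log2 fold change was 0.01, and it was -0.03 with scaling by library size alone and 0.11 without 24 h replicate 2. All 3 subunits of the linear ubiquitin ligase that activates IKK were higher, with log2 fold changes of 0.57 for *RNF31*, 0.43 for *RBCK1*, and 0.34 for *SHARPIN*, which were named after their values were seen. *TRAF5*, an adaptor of TNF receptors, had 322 and 312 normalized counts at 6 h and 607 and 628 at 24 h, and rose by 0.96 on the log2 scale. *MALT1*, a protease that links antigen receptors to IKK, rose by 0.73. *IRAK4* and *IRAK2*, kinases of the interleukin-1 and Toll-like receptor pathway, fell with log2 fold changes of -0.92 and -0.70.

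Of the 10 receptors tested, 4 were called higher and 5 lower, beside 33.0% and 32.6% of all genes tested. Their median log2 fold change was -0.19, and it was -0.07 both with DESeq2 and with no filter on low counts. *LTBR* and *TNFRSF12A*, which signal to the slower branch, rose with log2 fold changes of 0.94 and 0.88, and *LTBR* had 5907 and 5773 normalized counts at 6 h and 11147 and 11216 at 24 h. *TLR5*, the flagellin receptor, rose by 0.81, whereas *IL1RAP*, the accessory chain of the interleukin-1 receptor, had a log2 fold change of -0.64. Of the other negative regulators, 7 of 14 tested were called lower and 2 higher, beside 32.6% and 33.0% of all genes tested. Their median log2 fold change was -0.16. *TNIP3*, which binds the *TNFAIP3* protein, had 213 and 189 normalized counts at 6 h and 13.0 and 17.5 at 24 h, and was 13.2-fold lower. *ZC3H12A*, a ribonuclease that degrades inflammatory mRNAs, and *CYLD*, a deubiquitinase, had log2 fold changes of -0.73 and -0.62, both called lower. *TOLLIP*, an adaptor that restrains Toll-like receptor signaling, rose by 0.47, and so did *TNIP1*, named after its value was seen.

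**Figure D4:**
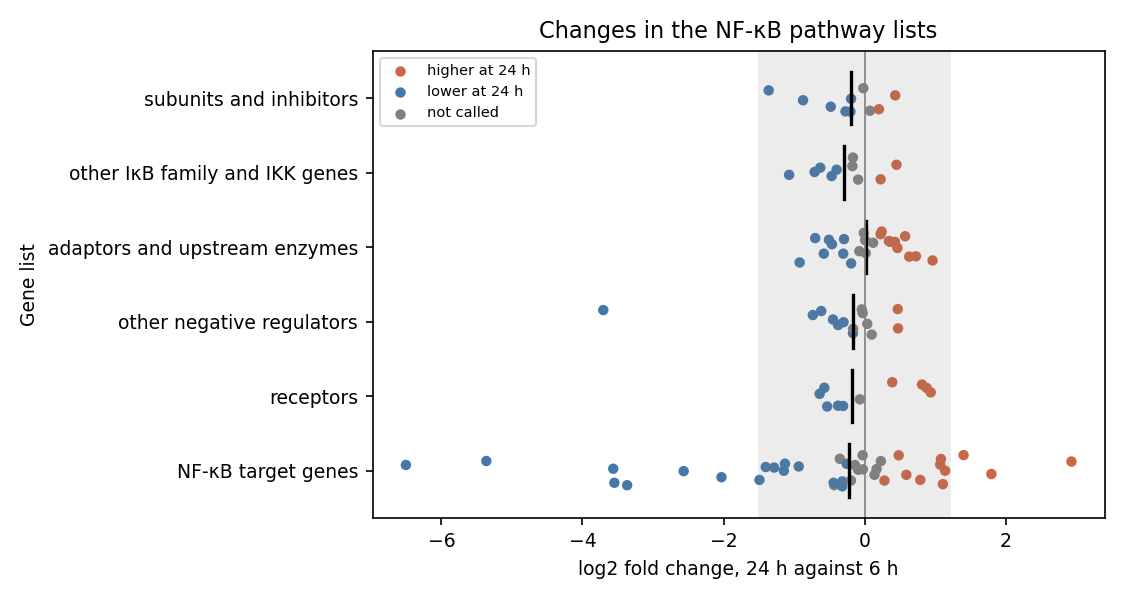
The log2 fold change of every tested gene in 6 lists of the NF-κB pathway, with the median of each list as a black bar. The 10 subunits and inhibitors of the top row stay within the grey band (5th to 95th percentile of all 12876 genes tested), while target genes reach beyond it on both sides and *TNIP3*, a negative regulator, lies below it.

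Target genes moved in both directions. Of 38 tested, 17 were called lower and 11 higher, beside 32.6% and 33.0% of all genes tested, and the median log2 fold change was -0.22. The 4 largest changes by the naming rule were all falls. *PTGS2*, which encodes an inducible cyclooxygenase, had 12365 and 10428 normalized counts at 6 h and 134 and 117 at 24 h, and was 90.7-fold lower. *CCL20*, a chemokine, had 275 and 223 at 6 h and 8.97 and 2.92 at 24 h, the latter from 9 and 3 reads. *PTX3*, a secreted pattern recognition protein, and *IL1A*, a cytokine that activates NF-κB, had log2 fold changes of -3.56 and -3.55. Other targets, named after their values were seen, rose while *NFKBIA* and *TNFAIP3* fell. *SAA1*, an acute-phase gene, rose by 2.93 on the log2 scale, *CCL2* by 1.40, *SDC4* by 1.14, and *IL6* by 1.11, although *SAA1* is nearly identical to *SAA2* and reads of the pair may be shared. The chemokines were split, with 4 of 9 lower and 3 higher, as were the cytokines, with 3 of 9 lower and 4 higher. Both adhesion genes tested, *ICAM1* and *VCAM1*, fell, with log2 fold changes of -1.13 and -1.49. *SOD2*, the target with the highest count, had a log2 fold change of 0.17 and was not called, and these 3 genes too were named after their values were seen.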

How the data were processed

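RNA from TPC1 cells was sequenced by the authors, aligned to hg19 with STAR, and deposited as raw read counts per gene. The submitters' processing notes give STAR version 2.3, whereas the methods of the paper give a later version. The authors also deposited a normalized signal, each count divided by a size factor, with its mean, and their DESeq2 comparison as log2 fold changes with standard errors, a Wald score, and p-values, none of which was used. Columns of per-sample values that could not be mapped to a library numbered 0. The counting program is not given in the sources used here.

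The test of the raw counts used edgeR 4.0.16 (R 4.3.3), with filterByExpr, TMM scaling, the quasi-likelihood test, and time as the single factor, and P was adjusted by the Benjamini-Hochberg method over 12876 genes. Standard errors were derived from the F statistic. DESeq2 1.42.0, other scalings, other filters, a replicate block, and each library left out were alternatives. The procedure was tested on simulated data. Transcript lengths came from GENCODE v44. The κB consensus was searched in RefSeq promoters. Total counts, from 23917056 to 27457040, set the counting error.

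The 10 genes and the lists were chosen with earlier results of these data known. Named were all 10 genes, all other tested IκB family and IKK genes, and in each further list the 4 called genes with the largest absolute log2 fold change and a mean normalized count of at least 50. Further genes named after their values were seen are marked as such in the text. *MAP3K14* was not analysed here. Plots were drawn with matplotlib 3.10.9.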

Additional observations from a re-analysis of the deposited data

How the results depend on the processing

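*TNFAIP3* and *NFKBIA* kept their calls under all 11 alternatives, and *RELA*, *NFKB2*, and *RELB* under the 10 that kept the adjusted P under 0.05 as the call rule. *NFKB1* lost its call in 2 of these 10, *NFKBIZ* in 3, and *NFKBIE* in 7, and the cause was not tested. The number of the 10 genes called higher was 2, and it was 1 with library size alone and from 1 to 2 with a library left out. With the stricter cutoffs, taken from the methods for lower genes and mirrored here for higher ones, it was 0, and the number called lower was 2 in place of 6. They left 0 higher and 3 lower among the other IκB family and IKK genes, and 4 higher and 4 lower among the adaptors. They also left 0 higher and 3 lower among the other negative regulators. Among the receptors 3 were higher and 3 lower, and among the target genes 9 were higher and 13 lower. Of all genes tested, 17.4% were higher and 17.7% lower by these cutoffs. DESeq2 called 2 of the 10 higher and 5 lower. The number called lower was also 5 with upper quartile scaling, with no filter, and with at least 10 counts in every library. It was smaller than 6 as well when either 24 h replicate or 6 h replicate 2 was left out. Of 26 other named genes, *IKBKG*, *IKBKE*, and *NKIRAS1* had no call to lose. Among the rest, 0 lost a call under the alternatives with the same call rule and 5 lost it with the stricter cutoffs. Those from the further lists were picked as the called genes with the largest changes, so that they would keep a call was likely from the start. These 26 are the genes of the naming rule and do not include those named after their values were seen. *CCL20* gave no value with at least 10 counts in every library. When a library is left out, the lone library of that time is assumed to vary like the others.

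The replicate numbers 1 and 2 occur at both times, but no source says what a number stands for. Libraries with the same number deviated from their group means with a correlation of 0.0844 over all genes tested. In the fit with a replicate block, 2 of the 10 genes were higher and 6 lower, and no call among the 10 changed. Groups of 2 libraries are too small for a test of outlying libraries, and a change of the size of the standard error of *REL*, 0.0962 on the log2 scale, was not detectable at this depth and spread.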
